A study of Homo sapiens with 6 samples.

Results

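The mitochondrial ribosome is built from proteins that are encoded in the nucleus, and the genes of these proteins carry the symbols MRPL, for the large subunit, and MRPS, for the small subunit. Rows of the deposited FPKM table were taken as members where the gene name was MRPL or MRPS followed by a number and, in some names, a letter from A to C, which gave 78 genes of 33392 in the table. FPKM is a level of RNA fragments already scaled for transcript length and for the mapped fragments of the library. RNA had been sequenced in 6 libraries from HK-2, a line of human kidney epithelium that was immortalised from proximal tubule cells. Of these, 3 came from cells given an siRNA against DYRK2, a dual-specificity protein kinase, and are called siDYRK2 here. The other 3 came from cells given a scramble siRNA. All 6 had TGF-β1 added, a fibrosis-driving cytokine, and carry the time 48 h, so both groups share the cytokine and no unstimulated cells enter the comparison. The labels do not say whether the 3 libraries of a group were separate cultures, and p-values therefore measure the spread between these libraries only, which may be technical.

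Mitochondrial ribosomes translate the messages of the mitochondrial genome, all of which code for membrane subunits of the respiratory chain and the ATP synthase. Their proteins are made in the cytosol, imported and assembled on ribosomal RNAs transcribed inside the organelle. Part of the proteins have a counterpart in the bacterial ribosome, and others sit at positions that the bacterial ribosome lacks. Proximal tubule cells depend heavily on respiration, which powers their transport of solutes.

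The deposited totals ran from 252318 to 255378 FPKM per library, and mitochondrially encoded genes took 26.3% to 27.8% of them. Pairs of libraries from 1 group had Pearson correlations of 0.989 to 0.991 across genes on the log2 scale, and pairs from different groups 0.974 to 0.976. DYRK2 stood at 1.45, 1.54 and 1.49 FPKM in the siDYRK2 libraries, against 5.84, 6.06 and 5.96 FPKM in the scramble libraries. The siRNA target was thus at 25.1% of its scramble level (log2 fold change −1.69, SE 0.0513, adjusted p = 2.0e-06 in limma), with an exact two-sided permutation p of 0.1, the smallest that 3 against 3 allows. PAX8, a transcription factor that defines the kidney tubule, averaged 0.0867 FPKM in siDYRK2 and 0.183 FPKM in scramble. All 5 epithelial markers passed 0.5 FPKM, with a sum of 238 to 250 in siDYRK2 and 333 to 351 in scramble. Of 8 lung epithelium markers 6 had a row and 3 passed 0.5 FPKM, with NKX2-1, which directs development of lung and thyroid, at a mean of 23.4 FPKM in siDYRK2 and 26.5 FPKM in scramble. The lung list summed to 28.4 to 29.7 FPKM in siDYRK2 and 30.8 to 34.1 FPKM in scramble. The fibroblast list had 0 of 6 genes at 0.5 FPKM. The labelled line is used as a name below, and the part of these marker levels in the results was not tested.

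All 78 members passed the filter of a mean of at least 0.5 FPKM over the 6 libraries. The fit, limma on log2(FPKM + 0.5) over 15121 genes with Benjamini-Hochberg adjustment, called 23 members higher and 6 lower in siDYRK2 at an adjusted p under 0.05, and 49 were not called. Over all genes tested 20.4% were called higher and 17.9% lower, which makes 38.3% in either direction. The members therefore stood at 29.5% higher, 7.69% lower and 37.2% called, a total share near the background. The count of higher members was 14 without siDYRK2 library 2 and 15 without scramble library 2, and was 16 to 23 without each of the others. Their median log2 fold change was 0.09, beside 0.01 over all genes tested, and 56 members had a positive and 22 a negative value. Most shifts were small, with 66 members (84.6%) within 0.25 of 0 on the log2 scale, beside 67.0% of all genes tested. A log2 fold change of 0.5 or more in size was reached by 2 members (2.56%), MRPL15 and MRPL53, beside 9.98% of all genes. The members had a median level of 13.5 FPKM, beside 4.745 FPKM over all genes tested. The part of level in these differences of spread was not tested. The 3 libraries of one group lay wholly above or below the 3 of the other in 40 members (51.3%), of which 31 were higher and 9 lower in siDYRK2, and 51.7% of all genes tested showed such a gap, 27.4% higher and 24.3% lower. These are bulk libraries, in which fewer cells of a type and less RNA per cell cannot be told apart.

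**Figure D1:**
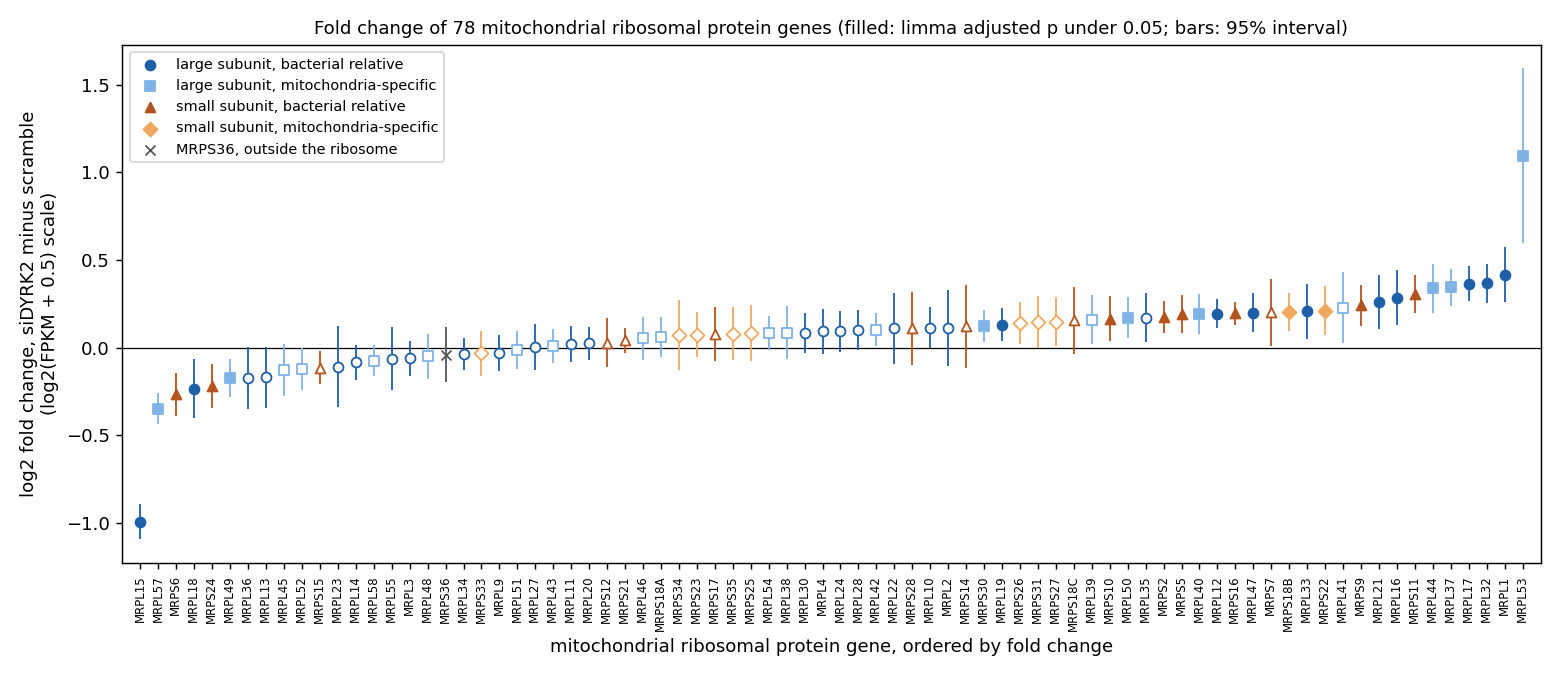
Log2 fold change (siDYRK2 minus scramble, log2(FPKM + 0.5) scale, vertical axis) of the 78 mitochondrial ribosomal protein genes with 95% intervals. Colour and marker show the subunit and whether the protein has a bacterial relative, with MRPS36 as a cross. Filled symbols are called genes and open symbols are not called. MRPL15 at −0.99 and MRPL53 at 1.09 stand apart, and 66 of the 78 genes lie within 0.25 of 0.

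MRPL15 was the member that fell furthest, and it lies at chr8:54135210-54147901 on the plus strand (GRCh38). It encodes a large-subunit protein related to a bacterial ribosomal protein that binds ribosomal RNA during assembly. Its level was 22.35, 21.69 and 20.43 FPKM in siDYRK2, against 41.80, 44.09 and 43.81 FPKM in scramble. The highest siDYRK2 library was well below the lowest scramble library. The means were 21.5 ± 0.976 and 43.2 ± 1.25 FPKM (SD, n = 3 each), so that siDYRK2 stood at 49.7% of scramble, 2.01-fold lower. Its log2 fold change came to −0.99 (SE 0.0422, 95% interval −1.09 to −0.89, limma adjusted p = 8.8e-06). It ran from −1.02 to −0.96 over 15 alternative settings and was called in each of them.

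The other 5 called decreases were smaller. MRPL57, a small protein of the large subunit with no bacterial relative, had 8.85, 8.84 and 8.71 FPKM in siDYRK2, against 11.61, 11.43 and 10.99 FPKM in scramble. It was at 77.6% of scramble (log2 fold change −0.35, SE 0.0374, limma adjusted p = 4.6e-04), and its groups did not overlap. MRPS6, a small-subunit protein of the bacterial kind, had 5.26, 5.01 and 5.30 FPKM in siDYRK2, against 6.60, 6.45 and 5.97 FPKM in scramble. It was at 81.9% of scramble (log2 fold change −0.26, limma adjusted p = 0.0064), again without overlap. MRPS6 shares exon bases on the same strand with SLC5A3, a myo-inositol transporter, which averaged 3.84 ± 0.215 FPKM in siDYRK2 and 6.80 ± 0.121 FPKM in scramble (SD, n = 3 each; log2 fold change −0.75, limma adjusted p = 6.6e-05). The part of shared reads in either value was not tested.

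MRPL18, MRPS24 and MRPL49 were called lower by narrower margins. MRPL18, a large-subunit protein of a bacterial family that binds RNA of the central protuberance, had 23.05, 26.04 and 27.35 FPKM in siDYRK2, against 31.71, 27.94 and 30.43 FPKM in scramble (log2 fold change −0.23, limma adjusted p = 0.037). Its groups came within 1 FPKM of each other, and it was not called without siDYRK2 library 1 or 2 or scramble library 1 or 3 (log2 fold change −0.25 to −0.17, limma adjusted p 0.0697 to 0.106). MRPS24, a small-subunit protein at the messenger RNA entry, had 15.91, 14.84 and 17.14 FPKM in siDYRK2, against 18.67, 18.88 and 18.23 FPKM in scramble. Its log2 fold change was −0.22 (limma adjusted p = 0.017), and without scramble library 2 it was −0.21 (limma adjusted p = 0.0577). MRPL49, a large-subunit protein without a bacterial relative, had 34.13, 32.08 and 33.40 FPKM in siDYRK2, against 35.24, 37.89 and 39.39 FPKM in scramble. The log2 fold change was −0.17 (limma adjusted p = 0.025), and it was −0.18 to −0.14 (limma adjusted p 0.0550 to 0.0813) without siDYRK2 library 2 or 3 or scramble library 2 or 3. MRPL49 overlaps FAU, a gene for a cytosolic ribosomal protein, on the opposite strand, and whether counting used strand is not given in the sources used here.

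MRPL53 had the largest rise among the members and, on the log2 scale, the largest standard error. It encodes a large-subunit protein without a bacterial relative and lies at chr2:74471958-74473322 on the minus strand. Its level was 8.41, 4.45 and 5.62 FPKM in siDYRK2, against 2.05, 2.97 and 2.63 FPKM in scramble. All 3 siDYRK2 libraries were above all 3 scramble libraries, and siDYRK2 library 1 was the highest. The means were 6.16 ± 2.03 and 2.55 ± 0.465 FPKM (SD, n = 3 each), 2.42-fold higher in siDYRK2. The log2 fold change was 1.09 (SE 0.213, 95% interval 0.60 to 1.59, limma adjusted p = 0.0061) and ran from 0.86 to 1.29 over the 15 alternatives. MRPL53 shares exon bases on the same strand with CCDC142, which averaged 7.32 ± 0.356 FPKM in siDYRK2 and 6.42 ± 0.305 FPKM in scramble (SD, n = 3 each; log2 fold change 0.18, limma adjusted p = 0.036).

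The next 5 rises were in large-subunit genes at 1.27-fold to 1.36-fold. MRPL1, a protein of the stalk beside the exit site for transfer RNA, had 11.54, 13.58 and 11.37 FPKM in siDYRK2, against 9.07, 8.97 and 8.82 FPKM in scramble (log2 fold change 0.42, SE 0.0676, limma adjusted p = 0.0028). MRPL32, whose mature form is cut out by the m-AAA protease of the inner membrane, had 13.50, 12.58 and 12.95 FPKM in siDYRK2, against 9.47, 10.04 and 10.43 FPKM in scramble. It was 1.30-fold higher (log2 fold change 0.37, limma adjusted p = 0.0011). In both genes the lowest siDYRK2 library was above the highest scramble library.

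MRPL17, of the bacterial kind, had 14.37, 15.02 and 15.41 FPKM in siDYRK2, against 11.48, 11.86 and 11.09 FPKM in scramble (1.30-fold, log2 fold change 0.37, limma adjusted p = 6.3e-04). MRPL37, without a bacterial relative, had 29.78, 30.19 and 32.35 FPKM in siDYRK2, against 23.90, 23.37 and 25.11 FPKM in scramble (1.28-fold, log2 fold change 0.34, limma adjusted p = 9.9e-04). MRPL44, which carries a ribonuclease III-like fold and is mutated in an inherited cardiomyopathy, had 15.88, 16.10 and 16.44 FPKM in siDYRK2, against 12.81, 13.66 and 11.59 FPKM in scramble (1.27-fold, log2 fold change 0.34, limma adjusted p = 0.0038). None of these 3 genes had overlapping groups.

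The remaining 2 of the 8 largest rises were MRPS11 and MRPL16, both of bacterial families. MRPS11 had 7.04, 7.16 and 7.63 FPKM in siDYRK2, against 5.84, 5.67 and 5.86 FPKM in scramble (1.26-fold, log2 fold change 0.31, limma adjusted p = 0.0020). MRPL16 had 21.18, 23.30 and 23.29 FPKM in siDYRK2, against 18.03, 20.23 and 17.14 FPKM in scramble (1.22-fold, log2 fold change 0.29, limma adjusted p = 0.014). In MRPL16 the gap between the groups was narrower than 1 FPKM, and the call was lost with no filter on low values (limma adjusted p = 0.062). The other 15 genes called higher had log2 fold changes of 0.12 to 0.26. Of all 29 calls 16 held under each of the 15 alternatives, 13 higher and 3 lower, and the 3 lower were MRPL15, MRPL57 and MRPS6.

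**Figure D2:**
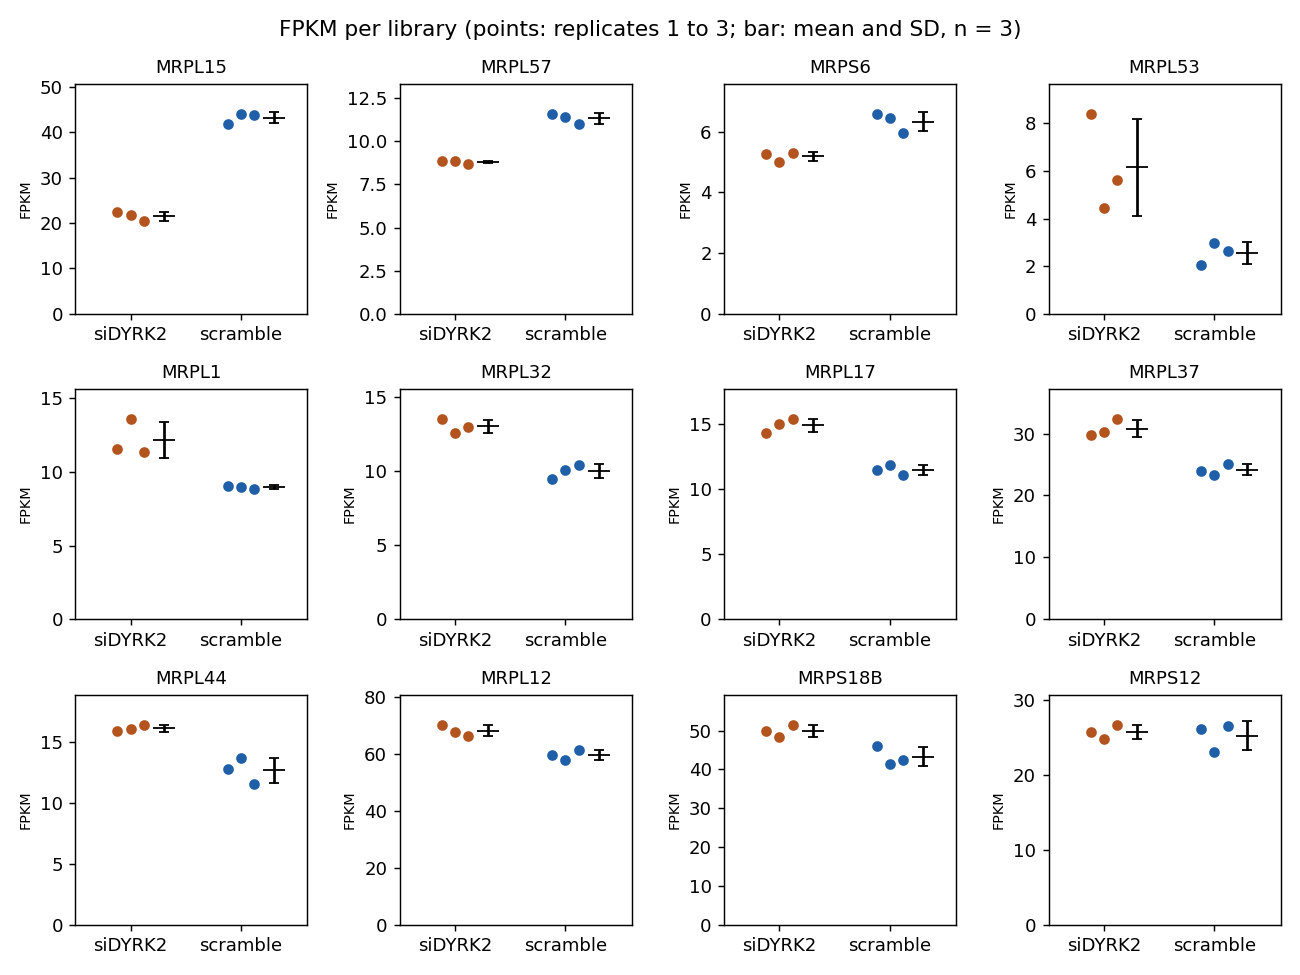
FPKM of 12 mitochondrial ribosomal protein genes in each library (points) with the group mean and SD (n = 3), siDYRK2 left of scramble in each panel. The siDYRK2 points of MRPL15 lie between 20.43 and 22.35 FPKM and the scramble points between 41.80 and 44.09 FPKM, while the groups of MRPS12 overlap.

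By subunit, 15 of 51 large-subunit genes were called higher and 4 lower, and the median log2 fold change was 0.09. In the small subunit 8 of 26 were called higher and 2 lower, with a median of 0.13. In total 37.3% of the large-subunit and 38.5% of the small-subunit genes were called, near the 38.3% of all genes tested. Called higher were 29.4% and 30.8%, beside 20.4% of all genes tested, and called lower were 7.84% and 7.69%, beside 17.9%. The large-subunit genes summed to 947.02, 947.43 and 954.85 FPKM in siDYRK2, against 901.05, 921.83 and 947.15 FPKM in scramble, so the groups overlapped. The small-subunit genes summed to 515.87, 509.12 and 517.01 FPKM in siDYRK2, against 479.94, 475.04 and 473.23 FPKM in scramble, with no overlap. All 78 genes together averaged 1468 ± 7.67 FPKM in siDYRK2 and 1404 ± 20.2 FPKM in scramble (SD, n = 3 each), a difference of 4.58% of the scramble mean. They made up 0.797% of the FPKM outside the mitochondrial genome in siDYRK2 and 0.757% in scramble.

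The large-to-small ratio of these sums averaged 1.85 ± 0.0126 in siDYRK2 and 1.94 ± 0.0620 in scramble (SD, n = 3 each). Its range was 1.84 to 1.86 in siDYRK2 and 1.88 to 2.001 in scramble, without overlap. Leaving out MRPL15, the ratio averaged 1.81 ± 0.0130 in siDYRK2 and 1.85 ± 0.0593 in scramble, and its ranges of 1.79 to 1.82 in siDYRK2 and 1.79 to 1.91 in scramble overlapped. Without MRPL15 the large-subunit sum ran from 924.67 to 934.42 FPKM in siDYRK2 and from 859.25 to 903.34 FPKM in scramble. The sums with all 51 genes overlapped by 0.13 FPKM, and leaving out any 1 of 16 of these genes ended that overlap. The ranges of the ratio overlapped when MRPL15 or, in the small subunit, MRPS16 or MRPS10 was left out alone, and for no other single gene.

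**Figure D3:**
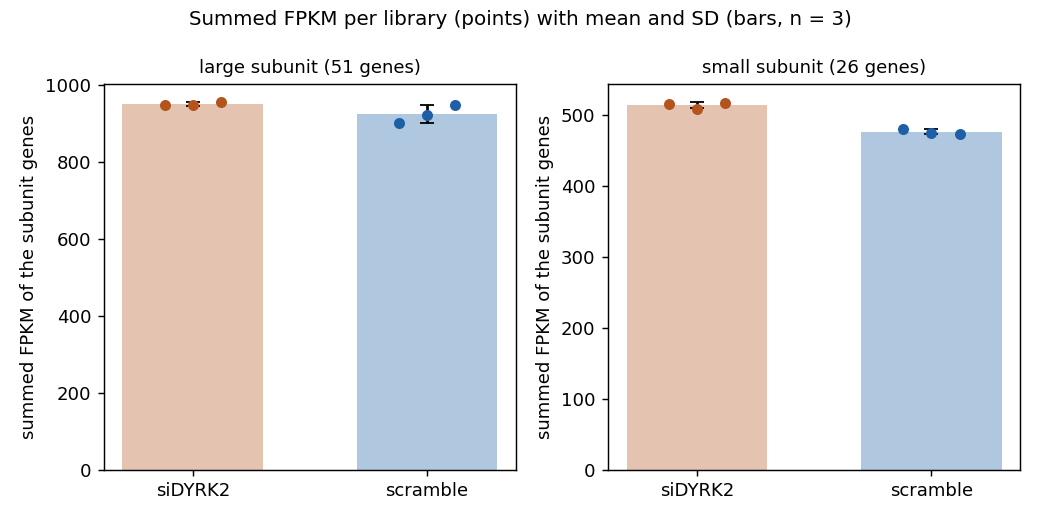
Summed FPKM of the 51 large-subunit genes and the 26 small-subunit genes in each library (points), with the mean and SD of each group (bars, n = 3). The small-subunit sums of siDYRK2 lie between 509.12 and 517.01 and those of scramble between 473.23 and 479.94, whereas the large-subunit sums overlap.

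Genes were next split by whether the protein has a counterpart at the same position in the bacterial ribosome. Among 30 large-subunit genes with such a counterpart 9 were higher and 2 lower, and among 21 without one 6 were higher and 2 lower. Of 16 small-subunit genes with a counterpart 6 were higher and 2 lower, and of 10 without one 2 were higher and 0 lower. Their median log2 fold changes were 0.09, 0.08, 0.14 and 0.11 in the same order. The shares called higher were 30%, 28.6%, 37.5% and 20%, beside 20.4% of all genes tested. The shares called lower were 6.67%, 9.52%, 12.5% and 0%, beside 17.9%. Calls in either direction made 36.7%, 38.1%, 50% and 20%, beside 38.3%. MRPS18A and MRPS30 are counted with the large subunit, where their proteins sit despite the symbol. MRPS36, now known as a subunit of the 2-oxoglutarate dehydrogenase complex, belongs to neither subunit. It had 4.13, 4.01 and 3.98 FPKM in siDYRK2, against 3.75, 4.32 and 4.45 FPKM in scramble (log2 fold change −0.04, 95% interval −0.20 to 0.12, limma adjusted p = 0.69).

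The 3 MRPS18 paralogs are related in sequence to a single bacterial protein. MRPS18A and MRPS18B are counted above among the genes without a counterpart, because their proteins sit at other positions than the bacterial one. MRPS18B, in the small subunit, had 49.98, 48.40 and 51.53 FPKM in siDYRK2, against 46.01, 41.51 and 42.41 FPKM in scramble, and was called higher (log2 fold change 0.21, limma adjusted p = 0.011). MRPS18A had 27.17, 25.21 and 28.12 FPKM in siDYRK2, against 26.64, 25.05 and 25.32 FPKM in scramble, and was not called (log2 fold change 0.06, 95% interval −0.05 to 0.17, limma adjusted p = 0.35). MRPS18C was much the lowest of them, with 2.94, 2.96 and 2.72 FPKM in siDYRK2, against 2.66, 2.21 and 2.73 FPKM in scramble (log2 fold change 0.16, 95% interval −0.04 to 0.35, limma adjusted p = 0.17). The groups of MRPS18A and MRPS18C overlapped. The difference between the paralogs' fold changes was not tested.

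MRPL12, the flexible stalk protein that recruits translation factors and also binds the mitochondrial RNA polymerase, was the most abundant member per length. It had 70.34, 67.77 and 66.44 FPKM in siDYRK2, against 59.63, 57.76 and 61.30 FPKM in scramble (1.14-fold, log2 fold change 0.19, limma adjusted p = 0.0047), without overlap. Mean levels over the 6 libraries ran from 1.62 FPKM in MRPL23 to 63.9 FPKM in MRPL12, a ratio of 39.4, with a median of 13.5 FPKM. MRPS21, MRPS10 and MRPL9 followed MRPL12 at the top. Of these, MRPS21 had 58.91, 57.28 and 59.81 FPKM in siDYRK2, against 56.18, 56.59 and 58.11 FPKM in scramble, and was not called (log2 fold change 0.04, limma adjusted p = 0.31). MRPS10, which sits in the head of the small subunit, had 55.23, 58.27 and 53.80 FPKM in siDYRK2, against 45.95, 51.22 and 51.89 FPKM in scramble (log2 fold change 0.17, limma adjusted p = 0.046). Its call held in 1 of the 6 settings that left out a library, that without scramble library 3, and in the other 5 the log2 fold change was 0.11 to 0.19 (limma adjusted p 0.0544 to 0.135).

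MRPL9 had overlapping groups, with 47.18, 50.69 and 49.44 FPKM in siDYRK2, against 47.64, 50.75 and 52.03 FPKM in scramble (log2 fold change −0.03, limma adjusted p = 0.63). The lowest members were MRPL23, MRPS22, MRPL22 and MRPS18C. MRPS22, whose mutations cause an inherited defect of mitochondrial translation, was the one of these 4 that was called, at 2.55, 2.73 and 2.74 FPKM in siDYRK2, against 2.30, 2.27 and 2.15 FPKM in scramble (log2 fold change 0.21, limma adjusted p = 0.028). That call held in 1 of the 6 settings that left out a library, that without siDYRK2 library 1, and in the other 5 the limma adjusted p was 0.0513 to 0.0847. MRPL22 had 2.88, 2.80 and 2.47 FPKM in siDYRK2, against 2.20, 2.70 and 2.55 FPKM in scramble (log2 fold change 0.11, limma adjusted p = 0.35). MRPL23 had 1.66, 1.28 and 1.70 FPKM in siDYRK2, against 1.77, 1.64 and 1.68 FPKM in scramble (log2 fold change −0.11, limma adjusted p = 0.42), and the groups overlapped in both.

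Of the members at functional sites, MRPS12, MRPL11, MRPL3 and MRPL58 were not called. MRPS12, the decoding-centre protein of the small subunit, had 25.72, 24.72 and 26.68 FPKM in siDYRK2, against 26.06, 23.00 and 26.56 FPKM in scramble (log2 fold change 0.03, 95% interval −0.11 to 0.17, limma adjusted p = 0.73). MRPL11, at the base of the factor-binding stalk, had 14.06, 14.77 and 15.10 FPKM in siDYRK2, against 13.98, 14.23 and 15.00 FPKM in scramble (log2 fold change 0.02, 95% interval −0.08 to 0.12, limma adjusted p = 0.71). The sign of both changed under 1 alternative each. MRPL3, which reaches towards the peptidyl transferase centre, had 33.87, 33.69 and 34.49 FPKM in siDYRK2, against 34.31, 34.47 and 37.86 FPKM in scramble (log2 fold change −0.06, 95% interval −0.16 to 0.04, limma adjusted p = 0.31). MRPL58, a peptidyl-tRNA hydrolase built into the large subunit that frees stalled chains, had 24.73, 25.70 and 26.49 FPKM in siDYRK2, against 26.46, 26.86 and 27.69 FPKM in scramble (log2 fold change −0.07, 95% interval −0.16 to 0.01, limma adjusted p = 0.16). The groups of these 4 genes overlapped.

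MRPS2, a small-subunit protein of the bacterial kind, had 28.39, 29.39 and 30.52 FPKM in siDYRK2, against 26.57, 26.14 and 25.31 FPKM in scramble, and was called higher (log2 fold change 0.18, limma adjusted p = 0.0096). MRPS30, without a bacterial relative, had 21.39, 22.43 and 21.96 FPKM in siDYRK2, against 19.55, 19.77 and 20.95 FPKM in scramble (log2 fold change 0.12, limma adjusted p = 0.041). The call of MRPS30 held in 1 of the 6 settings that left out a library, that without scramble library 3, and the other 5 gave a log2 fold change of 0.10 to 0.14 (limma adjusted p 0.0573 to 0.125). MRPL41, without a bacterial relative, had 52.43, 53.61 and 53.94 FPKM in siDYRK2, against 39.53, 46.02 and 51.46 FPKM in scramble, which did not overlap but were spread widely in scramble. It was not called (log2 fold change 0.23, 95% interval 0.03 to 0.43, limma adjusted p = 0.071), and without scramble library 3 it was (log2 fold change 0.32, limma adjusted p = 0.011).

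The annotation bears on how these levels were counted. In GENCODE v29, 30 members share exon bases with another gene that averaged at least 1 FPKM, 10 on the same strand and 21 on the opposite strand. Those on the opposite strand include MRPS22, beside genes of up to 9.09 FPKM, and MRPL32, beside PSMA2 at 9.48 FPKM. The part of such reads in their values was not tested. Among the 48 members without such sharing 13 were called higher and 4 lower, and their median log2 fold change was 0.09. All members stood at 29.5% higher and 7.69% lower, and all genes tested at 20.4% and 17.9%. Of 22 pseudogene rows named after members, 2 reached a mean of 0.5 FPKM, MRPS31P4 and MRPS31P5, with a highest mean of 2.17 FPKM, and neither was called. The members lie on 21 chromosomes.

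The 7-base words ATCTATA and CATCTAT were counted in the 3′ untranslated regions because earlier results on these libraries had tied them to lower genes. At least 1 of them occurred in 5 of 78 members (6.41%), beside 14.6% of 11916 genes tested with an annotated region. Member regions were short, with a median of 398 bases beside 1074 bases over those genes. MRPL15 holds ATCTATA once in a region of 182 bases. Of the other 4 genes, MRPS16 and MRPL19 were called higher and MRPS23 and MRPL42 were not called. MRPL19 (log2 fold change 0.13, limma adjusted p = 0.038) kept its call in 1 of the 6 settings that left out a library, that without siDYRK2 library 3, and the other 5 gave a limma adjusted p of 0.0527 to 0.113. MRPS16, a small-subunit protein of the bacterial kind, had 49.55, 49.92 and 50.66 FPKM in siDYRK2, against 42.77, 43.76 and 44.19 FPKM in scramble (log2 fold change 0.20, limma adjusted p = 0.0016). It shares exon bases on the same strand with DNAJC9, a co-chaperone of histones, which averaged 25.8 ± 0.646 FPKM in siDYRK2 and 18.3 ± 0.400 FPKM in scramble (SD, n = 3 each; log2 fold change 0.49, limma adjusted p = 7.2e-05). Over all genes tested with a region, 29.6% of those with a word and 16.7% of those without were called lower. The words had been chosen from these same libraries, so that contrast is no independent support. The median region was 2957 bases with a word and 869 bases without. Among the members 1 of 5 with a word and 5 of 73 without were called lower. The sites of MRPS16, MRPL19 and MRPS23 are shown with the word in capitals (in MRPS23 both words overlap, as CATCTATA) and 10 bases on either side, from GENCODE v29 transcripts. They lie at chr10:73249393-73249419 on the minus strand, chr2:75657101-75657127 on the plus strand and chr17:57835028-57835055 on the minus strand (GRCh38).
MRPS16: gatgccagtaATCTATAagggatcttt
MRPL19: attgtttgcgCATCTATttcctccaaa
MRPS23: tgtcttccatCATCTATAtgtctgactt

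Promoters of mitochondrial ribosomal protein genes were searched for the binding motifs of factors known to act on nuclear genes of mitochondrial proteins. RefSeq windows of 300 bases, 250 before and 50 after the start (GRCh38.p14), matched 69 of the 78 members, and both strands were read. The YY1 motif AAGATGGC occurred in 20 member promoters (28.99%), beside 5.58% of 10382 promoters of genes tested and 3.03% of all 27305 promoters. The ETS motif CCGGAAGT, bound by the GABP factors, occurred in 11 (15.9%), beside 9.18% of genes tested and 4.44% of all promoters. The NRF1 motif occurred in 8 (11.6%), beside 12.3% of genes tested and 6.28% of all promoters. The E-box CACGTG was in 6 (8.70%), beside 10.2% of genes tested, and the SP1 motif GGGCGG in 42 (60.9%), beside 71.5%. No matches of different motifs overlapped.

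At least 1 of the NRF1, ETS and YY1 motifs was present in 32 of 69 members (46.4%), beside 24.4% of promoters of genes tested. By call, this was so for 11 of 22 members called higher, 2 of 5 called lower and 19 of 42 not called. The YY1 motif was in 6 of 22 higher, 1 of 5 lower and 13 of 42 not called. A match describes letters in the window and not a bound site.

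Promoters of 4 called members are shown with the match in capitals, 1 for each of these 3 motifs in a gene that rose and 1 in a gene that fell. MRPL53 (chr2:74472631-74472930, minus strand) rose and holds the ETS motif, which starts 72 bases before the start. MRPL17 (chr11:6683291-6683590, minus strand) rose and holds the NRF1 motif 81 bases before it. MRPL32 (chr7:42932126-42932425, plus strand) rose and holds the YY1 motif, read on the opposite strand, 222 bases before it. MRPL57 (chr13:21176408-21176707, plus strand) fell and holds the NRF1 motif, read on the opposite strand, 74 bases before it, so this motif stands in a member that rose and in one that fell.
MRPL53: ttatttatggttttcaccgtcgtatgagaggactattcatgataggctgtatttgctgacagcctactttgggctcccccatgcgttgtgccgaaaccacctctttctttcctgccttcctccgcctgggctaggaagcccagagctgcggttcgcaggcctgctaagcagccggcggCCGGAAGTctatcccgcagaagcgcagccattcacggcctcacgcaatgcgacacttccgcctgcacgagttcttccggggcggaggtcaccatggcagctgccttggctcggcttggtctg
MRPL17: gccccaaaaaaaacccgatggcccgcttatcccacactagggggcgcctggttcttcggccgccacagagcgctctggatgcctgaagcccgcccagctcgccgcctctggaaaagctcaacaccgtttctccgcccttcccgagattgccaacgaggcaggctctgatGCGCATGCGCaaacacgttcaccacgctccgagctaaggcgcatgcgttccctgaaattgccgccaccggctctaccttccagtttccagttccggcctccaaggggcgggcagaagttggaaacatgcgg
MRPL32: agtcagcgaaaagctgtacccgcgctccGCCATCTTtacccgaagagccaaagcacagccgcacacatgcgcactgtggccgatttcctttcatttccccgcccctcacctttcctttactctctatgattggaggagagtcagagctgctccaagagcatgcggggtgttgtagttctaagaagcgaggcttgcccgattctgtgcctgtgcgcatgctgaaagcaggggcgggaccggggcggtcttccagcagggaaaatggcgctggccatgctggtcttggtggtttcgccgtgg
MRPL57: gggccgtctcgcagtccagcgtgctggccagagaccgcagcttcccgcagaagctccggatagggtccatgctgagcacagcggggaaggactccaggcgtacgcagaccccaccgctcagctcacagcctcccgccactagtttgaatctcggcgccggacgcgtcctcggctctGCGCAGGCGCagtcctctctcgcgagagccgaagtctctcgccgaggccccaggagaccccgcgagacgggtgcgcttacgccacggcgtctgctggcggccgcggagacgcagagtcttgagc

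Some proteins of the mitochondrial ribosome have other names. Of 5 such proteins 2 (40%) were called higher and 0 lower, beside 20.4% and 17.9% of all genes tested. Their median log2 fold change was 0.09. DAP3, a small-subunit GTP-binding protein, averaged 39.4 ± 1.33 FPKM in siDYRK2 and 34.4 ± 0.520 FPKM in scramble (SD, n = 3 each; log2 fold change 0.20, limma adjusted p = 0.0040). PTCD3, a small-subunit protein with RNA-binding repeats, was the other one (log2 fold change 0.17, limma adjusted p = 0.046). The call of PTCD3 held in 1 of the 6 settings that left out a library, that without scramble library 1, and the other 5 gave a limma adjusted p of 0.0601 to 0.125. Of 27 assembly factors 8 (29.6%) were called higher and 1 (3.70%) lower, with a median of 0.07. These calls made 33.3% of the assembly list, beside 38.3% of all genes tested. The count of higher genes was 5 without siDYRK2 library 2, and the count of lower genes was 2 without scramble library 1. MRM3, a methyltransferase of the large ribosomal RNA (log2 fold change 0.32, limma adjusted p = 0.0025), METTL17 (0.28, limma adjusted p = 0.0034) and AFG3L2 (0.25, limma adjusted p = 0.0025) were higher. AFG3L2 is a subunit of the m-AAA protease named with MRPL32 above. SPG7, another subunit of that protease, was not called (log2 fold change 0.07, limma adjusted p = 0.30). MPV17L2 was the 1 lower (log2 fold change −0.25, limma adjusted p = 0.0032).

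Of 18 translation factors 27.8% were called higher and 22.2% lower, beside 20.4% and 17.9% of all genes tested. Calls in either direction made 50%, beside 38.3%. The 5 higher were TUFM, GUF1, LRPPRC, SLIRP and OXA1L, and the 4 lower GFM2, MTIF2, MTIF3 and MTRF1L. The lower count was 3 in each of the 6 settings that left out a library, and MTIF3 had the weakest call (limma adjusted p = 0.0495). GFM2, the factor that separates the subunits after a round of translation, had 12.47, 11.89 and 10.27 FPKM in siDYRK2, against 21.57, 20.19 and 20.32 FPKM in scramble. Its means were 11.5 ± 1.14 and 20.7 ± 0.762 FPKM (SD, n = 3 each; log2 fold change −0.82, limma adjusted p = 1.8e-04), and the groups lay far apart. MTIF2, which places the initiator transfer RNA, averaged 15.7 FPKM in siDYRK2 and 21.2 FPKM in scramble (log2 fold change −0.43, limma adjusted p = 4.1e-04). TUFM, the elongation factor that delivers transfer RNAs, averaged 95.7 FPKM in siDYRK2 and 82.6 FPKM in scramble (log2 fold change 0.21, limma adjusted p = 0.0045), and GUF1, a related GTPase, rose as well (0.36, limma adjusted p = 3.0e-04). Of 20 genes of mitochondrial transfer RNA charging 6 (30%) were higher and 1 (5%), LARS2, lower, with a median of 0.10. These calls made 35% of the list, beside 38.3% of all genes tested. LARS2 (log2 fold change −0.30, limma adjusted p = 0.023) was not called without scramble library 1 or 2. WARS2, for tryptophan, was at 5.38 FPKM in siDYRK2 and 3.84 FPKM in scramble (log2 fold change 0.44, limma adjusted p = 9.8e-04), and AARS2, EARS2 and TARS2 were higher by 0.31 to 0.35 on the log2 scale.

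Genes of mitochondrial DNA upkeep and transcription had 7 of 9 (77.8%) called higher and 0 lower, beside 20.4% and 17.9% of all genes tested. Their median log2 fold change was 0.18. POLRMT, the mitochondrial RNA polymerase, averaged 20.02 ± 0.293 FPKM in siDYRK2 and 15.1 ± 0.400 FPKM in scramble (SD, n = 3 each; log2 fold change 0.40, limma adjusted p = 1.8e-04). POLG, the DNA polymerase, was higher by 0.28 (limma adjusted p = 0.0015), TEFM by 0.23 (limma adjusted p = 0.020) and TFAM, which packs the mitochondrial genome, by 0.18 (limma adjusted p = 0.014). The count was 3 of 9 without siDYRK2 library 2 and 4 of 9 without siDYRK2 library 1 or scramble library 3, and TEFM was not called in any of these 3 settings (limma adjusted p 0.0580 to 0.0632). Of 8 nuclear regulators tested 4 (50%) were higher, beside 20.4% of all genes tested, and 0 lower. They were led by GABPB1 (5.21 FPKM in siDYRK2 and 3.85 FPKM in scramble, log2 fold change 0.39, limma adjusted p = 5.0e-04), and ESRRA, PPARGC1B and PPRC1 followed at 0.13 to 0.35. That count was 2 of 8 without siDYRK2 library 2 or scramble library 2 or 3. PPARGC1B was not called in these 3 settings (limma adjusted p 0.0501 to 0.0628), and PPRC1 was called in 1 of the 6 that left out a library, that without scramble library 1. PPARGC1B was near the filter, at a mean of 1.04 FPKM in siDYRK2 and 0.71 FPKM in scramble. Genes for NRF1, GABPA, YY1 and MYC were not called, and PPARGC1A was below the filter and not tested.

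Among the RNAs of the mitochondrial genome 1 of 2 ribosomal RNAs and 3 of 13 messages (23.1%) were called, beside 38.3% of all genes tested. MT-RNR2, the large ribosomal RNA, was at 4429 ± 242 FPKM in siDYRK2 and 3921 ± 199 FPKM in scramble (SD, n = 3 each; log2 fold change 0.18, limma adjusted p = 0.045), a call lost under 8 of the 15 alternatives. These include leaving out siDYRK2 library 1 or 2 or scramble library 1 or 2 (limma adjusted p 0.107 to 0.154). MT-RNR1, the small one, was not called (log2 fold change 0.07, limma adjusted p = 0.55). Of 13 messages 2 were higher, MT-CO1 and MT-ND1 (0.24 and 0.17 on the log2 scale), and 1 was lower, MT-ND6 (log2 fold change −0.22). MT-ND1 was not called without siDYRK2 library 1 or 2 or scramble library 2 (limma adjusted p 0.0532 to 0.0743), and MT-ND6 without siDYRK2 library 1, 2 or 3 or scramble library 3 (limma adjusted p 0.0523 to 0.102). MT-CO1 was not called with no filter. It had the highest mean FPKM of all genes tested. Quantile normalization gave it the same level in both groups (log2 fold change 1.6e-15), so that setting cannot test its call. Over the alternatives these counts ran from 0 to 4 higher and 0 to 2 lower, with 4 higher without scramble library 1 and 2 lower without scramble library 2.

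Nuclear-encoded subunits of the respiratory chain and ATP synthase had 39 of 75 (52%) called higher and 1 (1.33%), NDUFB7, lower. These shares were 20.4% and 17.9% over all genes tested. The median log2 fold change of the subunit genes was 0.19. They summed to 2052 ± 44.7 FPKM in siDYRK2 and 1739 ± 40.9 FPKM in scramble (SD, n = 3 each). ATP5MC1, a ring subunit of the ATP synthase, averaged 18.6 ± 0.201 FPKM in siDYRK2 and 12.8 ± 0.264 FPKM in scramble (SD, n = 3 each; log2 fold change 0.52, limma adjusted p = 4.8e-05). Cytosolic ribosomal proteins had 2 of 76 (2.63%) called higher, RPS15 and RPS26, and 29 (38.2%) lower, with a median of −0.07. Calls in either direction made 40.8%, beside 38.3% of all genes tested. The higher count was 1 without siDYRK2 library 3 or scramble library 1 or 2 and 4 under quantile normalization, and the lower count ran from 23 to 30 over the alternatives. Their sum was 8997 ± 166 FPKM in siDYRK2 and 9656 ± 78.4 FPKM in scramble (SD, n = 3 each). RPL13 averaged 202 ± 1.32 FPKM in siDYRK2 and 261 ± 1.83 FPKM in scramble (SD, n = 3 each; log2 fold change −0.36, limma adjusted p = 6.4e-05). The difference between these lists and the mitochondrial ribosomal proteins was not tested.

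**Figure D4:**
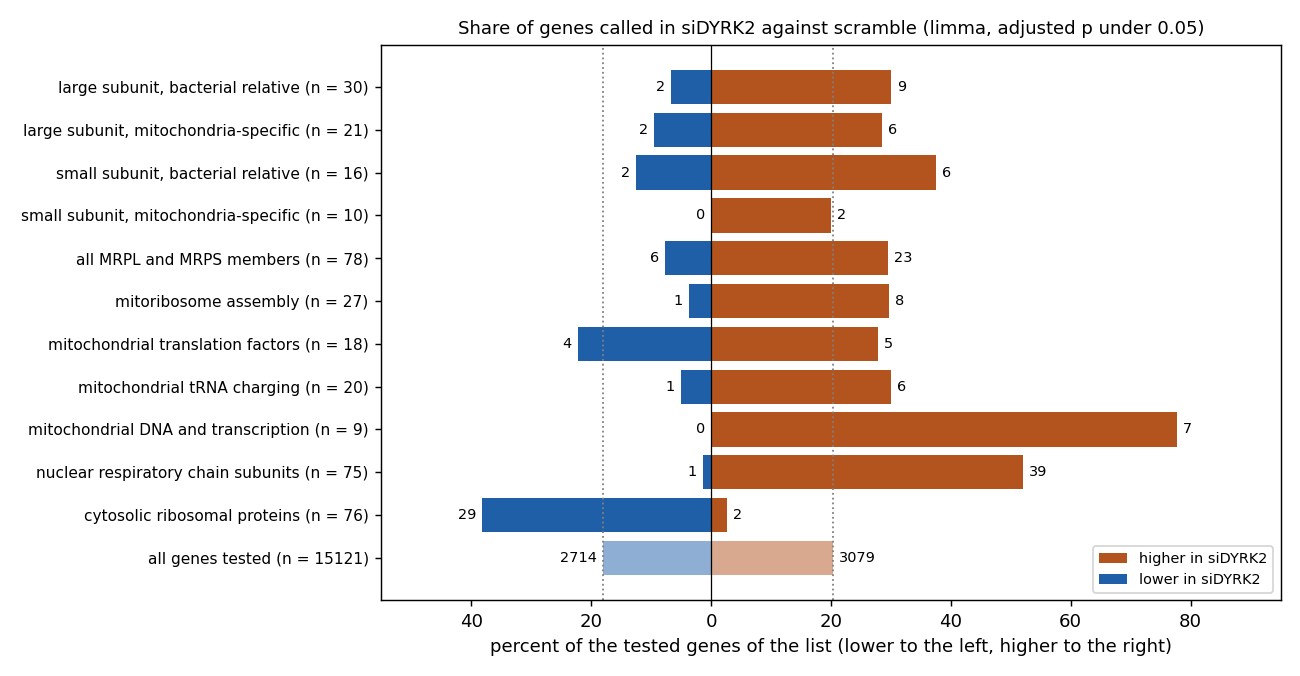
Percent of genes called higher and lower in siDYRK2 (horizontal axis) in the mitochondrial ribosomal proteins, in lists of related genes and in all genes tested. The lists drawn are assembly, translation factors, transfer RNA charging, mitochondrial DNA and transcription, respiratory chain subunits and cytosolic ribosomal proteins. Mitochondrial ribosomal proteins stand at 29.5% higher and 7.69% lower, cytosolic ribosomal proteins at 2.63% higher and 38.2% lower, and all genes at 20.4% and 17.9%.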

How the data were processed

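The deposited table holds FPKM that the authors computed for 33392 genes in 6 libraries, per the file headers, with Trizol RNA sequenced on an Illumina instrument by a provider, per the labels' protocols. HISAT2, StringTie and GRCh38 are named without versions or roles, per the submitters' processing notes. Values low enough to hold single reads did not fall on whole reads (26.4% to 28.7% of values within 0.1 of a whole number, 20% by chance), so depth is unknown, no count model was used and no counting interval is given.

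The 15121 genes whose FPKM averaged 0.5 or more were tested as log2(FPKM + 0.5), siDYRK2 minus scramble, with limma 3.58.1 in R 4.3.3 with a mean-variance trend and Benjamini-Hochberg adjustment over all of them at 0.05. The pseudocount understates changes of low genes. Fold values are ratios of mean FPKM. Pseudocounts of 0.1 and 1, other filters, other scalings, no trend, a replicate block and leaving out each library were tried as alternatives.

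Members and gene lists were chosen with earlier results of these data known. Members named in full are a fixed panel of 15, the 8 largest rises and up to 8 largest falls among called genes without overlap, and the 4 highest and 4 lowest by mean FPKM. In each list of related genes up to 4 called genes with the smallest adjusted p are named. MRPS16, MRPL19, MRPS23 and MRPL42, the uncalled regulators, PPARGC1A and genes that overlap members were named outside this rule, after their values were seen. So were MT-RNR1, NDUFB7, RPS15, RPS26, LARS2, MTIF3, MTRF1L, LRPPRC, SLIRP, OXA1L and SPG7. GTPBP6, with 2 rows, was left out of the assembly factors. Same-numbered libraries had correlations of −0.0767, 0.0243 and −0.0884 in their deviations from the group means, so the numbers were not taken as pairs. Symbols are those of the table, transcripts and coordinates are from GENCODE v29, promoters are from RefSeq (GRCh38.p14), and protein sequences were not used here. Some marker values are not reported here. Figures and counts were made in Python 3.11.15 with numpy 2.4.6 and pandas 2.3.3.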

Additional observations from a re-analysis of the deposited data

How the results depend on the processing

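The count of 23 members called higher was 15 with no filter on low values and 14 to 23 when 1 library was left out, with 14 without siDYRK2 library 2 and 15 without scramble library 2. The count of 6 called lower was 3 with no filter on low values and 4 to 6 when 1 library was left out. With the library number as a replicate block, which the pairing check did not bear out, 17 members were called higher and 4 lower. The members' median log2 fold change stayed between 0.08 and 0.11 under all 15 alternatives, and none of the 29 called members changed sign. The other filters, the fit without trend and the replicate block leave each member's log2 fold change as in the main fit. Those settings therefore cannot test the median or the sign. Of the 49 uncalled members 10 changed sign under at least 1 alternative, within −0.11 to 0.16. Among those named, this was so in MRPL11 under quantile normalization (−0.0081), in MRPS12 without scramble library 2 (range over left-out libraries −0.033 to 0.068) and in MRPS36 without scramble library 3 (range −0.11 to 0.0043), and the cause was not tested. Depth is not known from FPKM, so the precision of low members such as MRPL23 rests on the spread of 3 libraries alone.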
